A study of Mus musculus with 10 samples.

Results

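The genes described here are 10 genes of calcium and iron absorption, chosen by symbol among the 35275 genes of the deposited table and read in all 10 libraries. The 5 calcium genes were Trpv6, S100g, Atp2b1, Vdr and Cyp24a1, and the 5 iron genes were Cybrd1, Slc11a2, Heph, Slc40a1 and Tfrc. RNA came from jejunal epithelial cells of adult male C57BL/6 mice that all carried VillinCreERT2, a Cre recombinase under the epithelial villin promoter that tamoxifen activates, and floxed alleles of MYO5B. The 3 controls were given corn oil without induction, so the effect of tamoxifen itself cannot be told apart from loss of MYO5B. The 4 MYO5B-knockout mice received 2 mg tamoxifen once and then vehicle for 4 days, and 3 LPA-treated MYO5B-knockout mice received the same tamoxifen and then 3 mg/kg lysophosphatidic acid (LPA) by ip injection for 4 days. MYO5B is a motor protein that carries recycling vesicles to the apical membrane of enterocytes, and its loss causes microvillus inclusion disease.

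Enterocytes take up dietary calcium across the brush border through the channel TRPV6, buffer it with the small calcium-binding protein calbindin-D9k, the product of S100g, and extrude it through the basolateral pump encoded by Atp2b1. The vitamin D receptor VDR controls this route, and CYP24A1, the enzyme that inactivates the vitamin D hormone, is among its best known targets. Dietary ferric iron is reduced at the brush border, where the reductase DCYTB (Cybrd1) resides, and enters through the divalent metal transporter DMT1 (Slc11a2). It leaves through ferroportin (Slc40a1) with the help of the ferroxidase hephaestin (Heph), whereas TFRC takes up iron bound to transferrin from the blood side, mainly in dividing cells. Both routes are strongest in the duodenum and continue at a lower level in the jejunum.

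Each library held 10949420 to 24470409 reads in genes, so that 1 read on a gene of 1 kb corresponded to between 0.0409 and 0.0913 FPKM (fragments scaled to gene length and library size). Myo5b itself stood at 16.5, 32.0 and 26.1 FPKM in controls, at 10.5 to 13.6 FPKM in MYO5B knockouts and at 10.3 to 11.7 FPKM in LPA-treated animals, without overlap between control and induced mice. Its log2 fold change was -0.96 in MYO5B-knockout and -1.10 in LPA-treated mice against control (adjusted p = 0.115 and 0.0939 by limma). A pair of libraries, those of control 2 and MYO5B knockout 3, stood apart and are called gene-poor here: they detected 12242 and 12601 genes against 17309 to 18267 in the other 8, and mitochondrial genes took 17.4% and 18% of their reads against 1.98% to 3.50%. Results are therefore also given without these 2 libraries, a choice made after seeing the data. Without them the differences in Myo5b were -1.15 and -1.37 (adjusted p = 0.0185 and 0.00651 by limma). MYO5B-knockout mouse 3 and LPA-treated mouse 1 were labelled male but held Xist at 8.41 and 15.1 FPKM and no reads on 4 genes of the Y chromosome. The label of LPA-treated mouse 1 also names both a vehicle and LPA. The marker genes were those of small intestinal epithelium. The summed level of 12 enterocyte markers was 31750 to 42090 FPKM in controls, 14500 to 27200 FPKM in MYO5B knockouts and 23050 to 43820 FPKM in LPA-treated animals, with all 12 detected in each group. The summed level of 10 leukocyte markers was 72.2 to 89.6, 9.67 to 34.6 and 22.3 to 27.5 FPKM in the same order, and that of 10 proliferation markers was 94.2 to 132, 217 to 353 and 160 to 267 FPKM. The leukocyte and proliferation sums separated the controls from all induced mice and the enterocyte sum separated them from the untreated knockouts, and the part of these sums in the results on the calcium and iron genes was not tested. Of these lists, 1 enterocyte marker and 2 leukocyte markers fell in MYO5B-knockout mice, 2 enterocyte markers and 1 leukocyte marker fell in LPA-treated mice against control, and no proliferation marker passed by limma. Without the 2 gene-poor libraries these counts were 2 enterocyte and 2 leukocyte markers lower in MYO5B-knockout mice, and 4 and 1 lower in LPA-treated mice. Of all 15729 genes tested, 139 and 122 were lower in these comparisons with all libraries, and 375 and 668 without the 2. By gene, the enterocyte markers had a median log2 fold change of -0.929 in MYO5B-knockout and -0.956 in LPA-treated mice against control. Between treated and untreated knockouts it was -0.157, and -0.705 without the 2 gene-poor libraries. The sum of 3 markers of the proximal small intestine was 25.4 to 57.8, 26.2 to 68.9 and 28.8 to 78.0 FPKM, and none of them passed in any comparison.

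Of the 10 genes, 8 passed the filter on low values (an average of 0.1 FPKM or more across libraries), and Trpv6 and Cyp24a1 did not. Between MYO5B knockouts and controls, Cybrd1 rose and Vdr fell, which is 1 of 8 genes in each direction, when 1.13% of the 15729 genes tested rose and 0.884% fell (limma's adjusted p below 0.05). The values of the MYO5B-knockout and control mice did not overlap for 4 of the 8 genes (Cybrd1, Vdr, Slc11a2 and S100g), and for 17.2% of all genes tested. Between LPA-treated and untreated MYO5B knockouts, none of the 8 genes passed, and 0% of all genes rose and 0% fell by limma. At an unadjusted p below 0.05 the count over all genes was 459, and on reads recovered from the FPKM it was 0 at the adjusted threshold by edgeR and 6 by DESeq2. The groups did not overlap for 1 of the 8 genes in this comparison (Cybrd1) and for 4.16% of all genes. Between LPA-treated MYO5B-knockout and control mice, Cybrd1 rose and Vdr fell, when 1.54% of all genes rose and 0.776% fell, and 3 of the 8 did not overlap (Cybrd1, Vdr and Slc11a2) against 26.9% of all genes. Without the 2 gene-poor libraries, Vdr and Slc11a2 fell and none rose between MYO5B knockouts and controls, when 403 of the 15729 genes rose and 375 fell. In LPA-treated animals Cybrd1 then rose and Vdr and Slc11a2 fell, when 678 rose and 668 fell. The comparisons with control share the 3 control mice, and those with MYO5B-knockout share the 4 MYO5B-knockout mice, so they are not independent. In bulk RNA, fewer cells of a type and less RNA per cell cannot be told apart.

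Over all genes tested, the median difference was 0.29 on the log2 scale between MYO5B knockouts and controls and 0.039 after the libraries were scaled by the median of their ratios. The split of genes that passed changed with it from 177 higher and 139 lower to 223 higher and 375 lower. Between LPA-treated animals and controls the median went from 0.42 to 0.11, and the split from 243 higher and 122 lower to 221 higher and 269 lower. Cybrd1 and Vdr kept their direction and passed under both scalings in both comparisons. A further pair, S100g and Slc11a2, passed after this scaling between MYO5B knockouts and controls, at log2 fold changes of -2.33 and -1.56 (adjusted p = 0.0395 and 0.011 by limma).

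**Figure D1:**
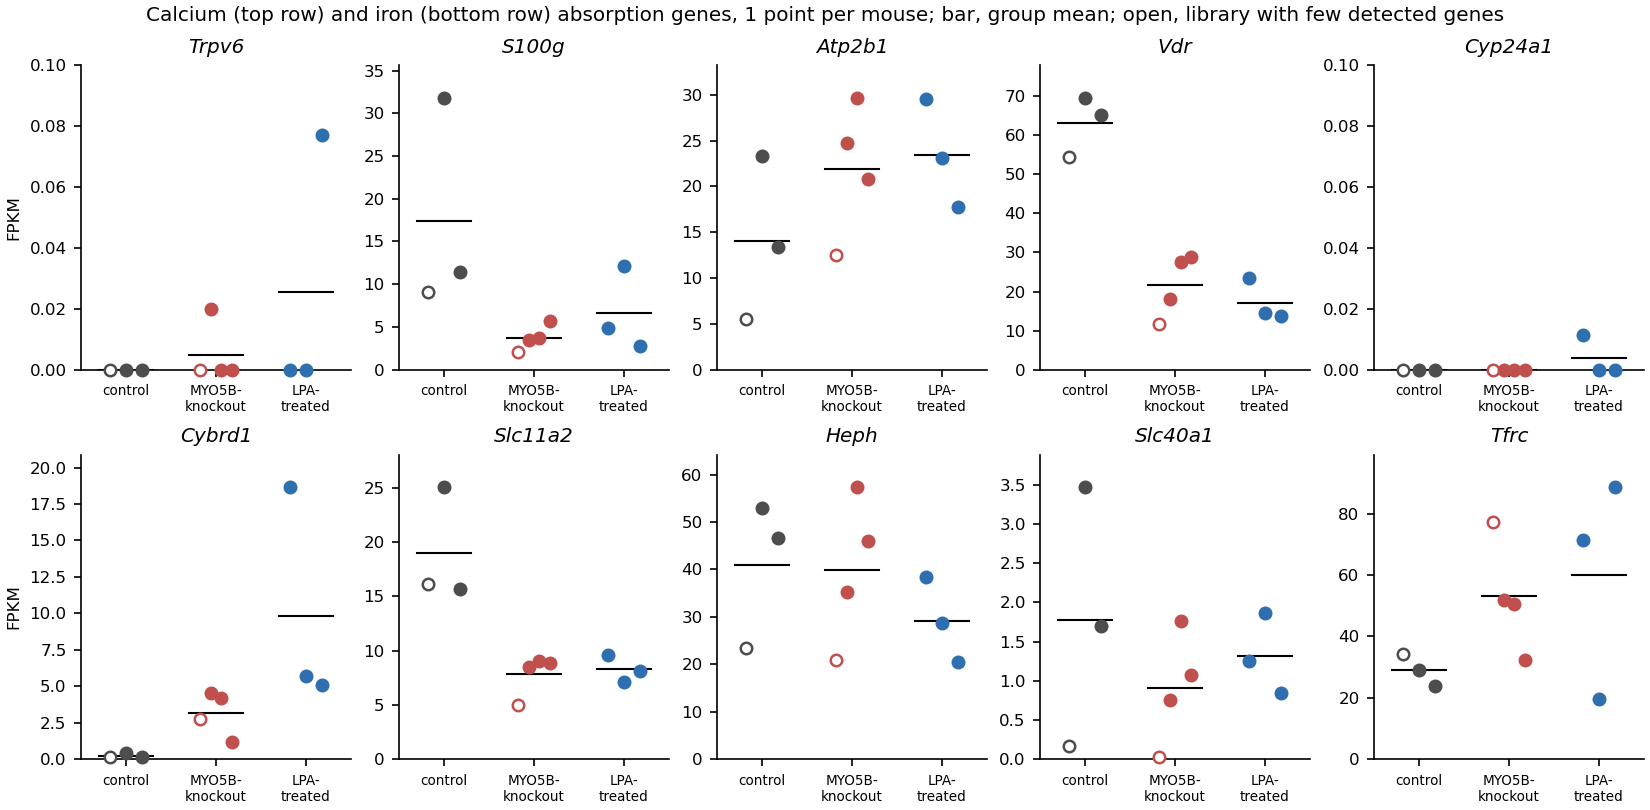
FPKM of the 10 calcium (top row) and iron (bottom row) absorption genes, with 1 point per mouse, a bar at the group mean and open points for the 2 gene-poor libraries; each panel has its own linear axis from 0. Vdr lay between 54.4 and 69.5 FPKM in controls and at or below 28.9 FPKM in all induced mice, whereas Cybrd1 was at or below 0.377 FPKM in controls and at or above 1.15 FPKM in all induced mice.

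The apical calcium channel gene Trpv6 (ENSMUSG00000029868, chromosome 6 from 41620621 to 41636405, GRCm38) was nearly silent in the jejunal cells of every group. It had 1 read in MYO5B-knockout mouse 5 and 3 reads in LPA-treated mouse 5, and 0 reads in the other 8 libraries, which is 4 of 170230981 reads. A count of 0 allows a level of up to 0.0419 to 0.0936 FPKM (3 reads, depending on the library, counting error only). No difference in Trpv6 was therefore detectable at this depth, and no fold change is given. Cyp24a1 (ENSMUSG00000038567, chromosome 2 from 170482708 to 170497145) had 1 read, in LPA-treated mouse 1, over all 10 libraries, and a count of 0 allows up to 0.0344 to 0.0770 FPKM for it.

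S100g, the gene of calbindin-D9k (ENSMUSG00000040808, chromosome X from 162961992 to 162964599), stood at 9.05, 31.8 and 11.4 FPKM in controls 2, 4 and 5. It stood at 2.09, 3.50, 3.67 and 5.73 FPKM in MYO5B knockouts 3, 5, 6 and 7. The LPA-treated values were 4.85, 12.2 and 2.81 FPKM in animals 1, 4 and 5. Every MYO5B-knockout mouse thus lay below every control mouse, whereas LPA-treated mouse 4 lay within the control range. Between MYO5B knockouts and controls the difference in log2(FPKM + 0.1) was -2.05 (standard error 0.59, 95% confidence interval -3.35 to -0.74), which did not pass (adjusted p = 0.105 by limma). Without the 2 gene-poor libraries it was -2.16 (adjusted p = 0.0973 by limma). The difference between treated and untreated MYO5B knockouts was 0.63, with an interval from -0.67 to 1.93. These levels rested on 11 to 235 reads per library. The gene overlaps Ctps2 on the other strand, which held 174% as many reads, and as the libraries are not stated to keep strand, reads of the overlapping stretch cannot be told apart.

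The promoter windows of S100g and Trpv6 are shown because both genes are classical targets of the vitamin D receptor, which binds pairs of 6-base repeats. The 250 bases before the RefSeq start were read from RefSeq (GRCm38.p6), which held a window for 6 of the 10 genes (Trpv6, S100g, Atp2b1, Vdr, Cybrd1 and Tfrc). Both windows lie on the minus strand, at chrX:162964600-162964849 for S100g, within the gene Ctps2 but in no annotated exon, and at chr6:41636406-41636655 for Trpv6, outside other genes. Capitals mark the repeat unit AGGTCA on either strand, which reads TGACCT where it lies on the other strand:
S100g: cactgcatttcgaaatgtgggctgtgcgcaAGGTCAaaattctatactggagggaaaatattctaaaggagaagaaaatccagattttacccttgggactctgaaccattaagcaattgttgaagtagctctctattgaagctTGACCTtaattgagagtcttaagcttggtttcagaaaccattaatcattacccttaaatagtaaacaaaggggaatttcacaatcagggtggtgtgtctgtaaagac
Trpv6: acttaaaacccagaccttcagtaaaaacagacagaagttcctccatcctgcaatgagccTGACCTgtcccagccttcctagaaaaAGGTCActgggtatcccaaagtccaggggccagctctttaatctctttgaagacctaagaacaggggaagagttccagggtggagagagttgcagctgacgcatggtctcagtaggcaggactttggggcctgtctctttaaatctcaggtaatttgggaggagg
The repeat unit stood on both strands in each of the 2 windows, 220 and 107 bases before the start of S100g and 191 and 165 bases before that of Trpv6, counted to the first base of each match as printed. Of all 32851 promoter windows of the same length, 14.0% held AGGTCA at least once, and the windows of Atp2b1, Vdr, Cybrd1 and Tfrc did not. The variant GGGTCA, present in 11.6% of all windows, was in none of the 6. Similar letters thus lay upstream of a gene with reads in every library and of a gene nearly without reads. A match is a description of the letters and not evidence of binding.

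Atp2b1, the basolateral calcium pump gene (ENSMUSG00000019943, chromosome 10 from 98915152 to 99026143), stood at 5.51, 23.3 and 13.4 FPKM in controls, at 12.5, 24.7, 29.7 and 20.8 FPKM in MYO5B knockouts and at 29.5, 23.1 and 17.7 FPKM in LPA-treated animals. The 3 groups overlapped, and the lowest control and MYO5B-knockout values came from the 2 gene-poor libraries. The log2 fold change was 0.80 between MYO5B knockouts and controls (95% confidence interval -0.26 to 1.86, adjusted p = 0.424 by limma) and 0.49 without these 2 libraries. For the exit pump the interval thus reached from a slight decrease to a marked rise.

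Vdr (ENSMUSG00000022479, chromosome 15 from 97854425 to 97910630) had the highest mean of the 10 genes in control mice and fell in both groups of induced mice. It stood at 54.4, 69.5 and 65.1 FPKM in controls 2, 4 and 5. It stood at 11.7, 18.2, 27.5 and 28.9 FPKM in MYO5B knockouts 3, 5, 6 and 7. In LPA-treated animals 1, 4 and 5 it stood at 23.4, 14.4 and 13.8 FPKM. All 7 induced mice lay well below the control mice, and the LPA-treated mice lay within the range of the MYO5B-knockout mice. The log2 fold change between MYO5B knockouts and controls was -1.62 (standard error 0.36, 3.07-fold lower, adjusted p = 0.0485 by limma) and -1.46 without the 2 gene-poor libraries (adjusted p = 0.0397 by limma). Against controls, LPA-treated animals stood at -1.90 (standard error 0.38, 3.74-fold lower, adjusted p = 0.0326 by limma), and -2.01 without the 2 libraries (adjusted p = 0.0114 by limma). LPA-treated knockouts and untreated ones differed by -0.28, with a 95% confidence interval from -1.07 to 0.51 that leaves room for a moderate change in either direction. The call between MYO5B knockouts and controls sits at the threshold: when single mice were left out, the log2 fold change stayed between -1.79 and -1.36, and it passed in 1 of 10 fits, that without MYO5B-knockout mouse 3 (adjusted p = 0.049, otherwise 0.0568 to 0.17, by limma). The call for LPA-treated animals held in 4 of 10 such fits, those without control mouse 2 or without MYO5B-knockout mouse 3, 5 or 7, with limma's adjusted p from 0.013 to 0.138. Without the 2 libraries that held Xist both calls passed, at -1.36 and -2.15 (adjusted p = 0.0452 and 0.0197 by limma).

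The promoter window of Vdr is shown beside those of its targets. It was read up to the annotated exon at its end, at chr15:97908311-97908546 on the minus strand, inside the span of the Vdr gene. Capitals mark GCGTG, a core that hypoxia-inducible factors can bind, and the GC box GGGCGG, both searched on either strand:
Vdr: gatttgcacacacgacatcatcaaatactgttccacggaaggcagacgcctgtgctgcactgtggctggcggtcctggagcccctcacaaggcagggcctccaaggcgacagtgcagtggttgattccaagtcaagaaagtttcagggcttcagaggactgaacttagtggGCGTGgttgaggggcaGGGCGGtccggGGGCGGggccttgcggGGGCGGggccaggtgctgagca
GCGTG stood 79 bases before the RefSeq start, and the GC box stood at 63, 52 and 36 bases. Of all windows, 28.2% held GCGTG and 32.7% held GGGCGG on either strand, so these are common features of promoters.

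The other genes of calcium handling and vitamin D signalling came from a list of 32 genes, of which 22 passed the filter on low values. Between MYO5B knockouts and controls 1 of the 22 rose, Cldn2, and none fell, and their median log2 fold change was 0.048 against 0.29 over all genes tested. With both gene-poor libraries left out, 1 rose and none fell. Of all 15729 genes tested, 177 rose and 139 fell, and 403 rose and 375 fell with these libraries left out. Cldn2 encodes a claudin that forms paracellular channels for small cations such as sodium and calcium. It stood at 7.88, 12.7 and 8.93 FPKM in controls, at 44.7, 119, 106 and 73.3 FPKM in MYO5B knockouts and at 161, 78.6 and 66.3 FPKM in LPA-treated animals. The lowest induced mouse was thus more than 3 times the highest control mouse, at a log2 fold change of 3.05 (standard error 0.42, adjusted p = 0.0081 by limma) for MYO5B-knockout and 3.28 (standard error 0.44, adjusted p = 0.00595 by limma) for LPA-treated mice against control. These were, with both gene-poor libraries left out, 3.18 and 3.13 (adjusted p = 0.0123 and 0.00777 by limma). With single mice left out the rise passed in 9 of 10 fits for MYO5B-knockout mice, with limma's adjusted p at 0.0506 without control mouse 5, and in 10 of 10 for LPA-treated mice. The groups were also apart, without passing, for Cldn12 (15.9 FPKM on average in MYO5B-knockout and 8.79 FPKM in controls, adjusted p = 0.171 by limma) and for Cldn15, a pore-forming claudin (175 and 356 FPKM, adjusted p = 0.18 by limma). Over all genes tested, 17.2% were apart in this comparison. Rxra, which encodes a dimer partner of VDR and was named after its values were seen, stood at 22.9, 39.8 and 38.4 FPKM in controls and at 16.9 to 24.1 FPKM in MYO5B knockouts. Its log2 fold change was -0.59 (adjusted p = 0.316 by limma). Of the 10 list genes below the filter, Trpv5, a close relative of Trpv6, had 0 reads in every library.

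Between treated and untreated MYO5B knockouts none of these 22 genes passed, and their median was 0.028 against 0.11 over all genes. Between LPA-treated animals and controls 1 rose (Cldn2) and none fell, with a median of 0.29 against 0.42. Without the 2 libraries 1 rose and 2 fell, and the median was -0.135 against 0.135 over all genes. Of all 15729 genes, 243 rose and 122 fell, and 678 rose and 668 fell without the 2 libraries. The groups were apart for 4 of the 22 in the higher and 3 in the lower direction, and for 26.9% of all genes tested, in either direction. Among those that did not pass were Stc1, Atp2a2, Cldn15, Itpr2 and Slc34a2. Stc1, which encodes the secreted factor stanniocalcin, was listed at 0 in all 3 control mice and at 0.0546, 0.649 and 0.602 FPKM in LPA-treated animals, which is 5, 42 and 30 reads (adjusted p = 0.152 by limma). Atp2a2, the calcium pump of the endoplasmic reticulum, averaged 79.2 FPKM in LPA-treated and 42.5 FPKM in controls. The phosphate transporter gene Slc34a2 averaged 0.287 and 2.76 FPKM, and Itpr2, a calcium release channel, averaged 0.378 and 1.30 FPKM (adjusted p = 0.304 and 0.223 by limma).

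Cybrd1, the gene of the ferric reductase (ENSMUSG00000027015, chromosome 2 from 71117923 to 71142926), was low in control mice and present in all induced mice. It was at 0.119, 0.377 and 0.139 FPKM in controls 2, 4 and 5, which is 7, 31 and 13 reads. In MYO5B knockouts 3, 5, 6 and 7 it was at 2.74, 4.53, 4.16 and 1.15 FPKM. In LPA-treated animals 1, 4 and 5 it was at 18.7, 5.66 and 5.06 FPKM. The 3 groups did not overlap, and the LPA-treated mice were the highest, with mouse 1 far above the other 2. On the scale of log2(FPKM + 0.1), which understates the change of low genes, the log2 fold change between MYO5B knockouts and controls was 3.31 (standard error 0.63, 9.91-fold, adjusted p = 0.031 by limma). For LPA-treated animals it was 4.82 (standard error 0.68, 28.2-fold, adjusted p = 0.00724 by limma). LPA-treated knockouts and untreated ones differed by 1.51 (standard error 0.63, 95% confidence interval 0.11 to 2.91, unadjusted p = 0.0373 by limma), which did not pass over all genes (adjusted p = 1 by limma). Without LPA-treated mouse 1, whose label is unclear, that difference was 0.91 and the difference from control was 4.22 (adjusted p = 0.0323 by limma).

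The rise in MYO5B-knockout mice passed in 3 of 10 fits with a mouse left out, those without MYO5B-knockout mouse 3, MYO5B-knockout mouse 7 or LPA-treated mouse 1. In the other 7 limma's adjusted p was 0.0526 to 0.126, and over all 10 fits the log2 fold change stayed between 3.08 and 3.71. Without the 2 gene-poor libraries it was 3.11 (adjusted p = 0.0627 by limma). The rise in LPA-treated mice passed in all 10 such fits, at 4.22 to 5.17, and was 4.61 without the 2 libraries (adjusted p = 0.0167 by limma). Without the 2 libraries that held Xist the rises were 3.32 and 4.22 (adjusted p = 0.0474 and 0.0329 by limma).

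The stretch upstream of Cybrd1 is shown because this gene had the largest fold change of the 10. It lies at chr2:71117804-71117922 on the plus strand (GRCm38.p6, from RefSeq), ends where the first annotated exon begins and overlaps no other gene. Capitals mark GCGTG:
Cybrd1: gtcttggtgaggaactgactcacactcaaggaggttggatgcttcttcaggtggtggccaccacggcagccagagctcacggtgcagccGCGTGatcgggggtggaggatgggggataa
GCGTG stood 161 bases before the RefSeq start of Cybrd1 and was also in the windows of Vdr and Tfrc, and in 28.2% of all windows. Its part in the levels of these genes was not tested. The related core ACGTG, present in 16.6% of all windows, was found in a window of Tfrc alone among the 6 genes.

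Slc11a2, the gene of the ferrous iron transporter DMT1 (ENSMUSG00000023030, chromosome 15 from 100387898 to 100425072), was lower in induced mice, by an amount that passed in some fits. It stood at 16.2, 25.1 and 15.6 FPKM in controls, at 5.01, 8.50, 9.06 and 8.85 FPKM in MYO5B knockouts and at 9.61, 7.11 and 8.11 FPKM in LPA-treated animals. All 7 induced mice lay below the control mice, and the LPA-treated mice overlapped with the MYO5B-knockout mice. The log2 fold change was -1.27 between MYO5B knockouts and controls (standard error 0.32, 95% confidence interval -1.98 to -0.56, adjusted p = 0.0711 by limma). For LPA-treated animals against controls it was -1.16 (standard error 0.34, adjusted p = 0.12 by limma). Both passed once the gene-poor libraries were left out, at -1.16 and -1.26 (adjusted p = 0.0428 and 0.0257 by limma). The difference between treated and untreated MYO5B knockouts was 0.10, with an interval from -0.61 to 0.81.

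**Figure D2:**
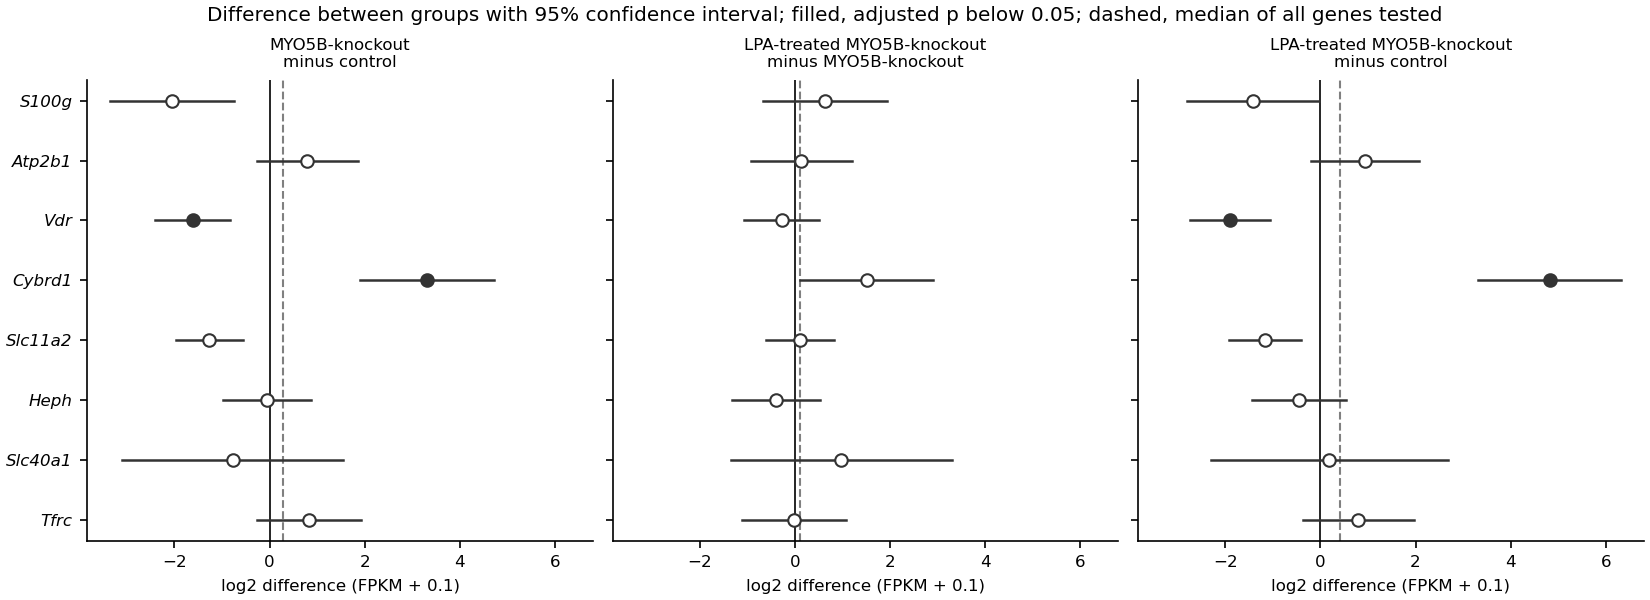
Difference between groups in log2(FPKM + 0.1) for the 8 genes above the filter on low values, with the 95% confidence interval; filled points passed an adjusted p of 0.05, the solid line is 0 and the dashed line is the median of all genes tested. Vdr and Cybrd1 passed in both comparisons with control (-1.62 and 3.31 in MYO5B knockouts, -1.90 and 4.82 in LPA-treated animals), and no gene passed between treated and untreated MYO5B knockouts.

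Heph, which encodes the ferroxidase hephaestin (ENSMUSG00000031209, chromosome X from 96455359 to 96574485), was the second most abundant of the 10 genes in each group. It stood at 23.4, 52.9 and 46.6 FPKM in controls, at 20.8, 35.3, 57.4 and 46.0 FPKM in MYO5B knockouts and at 38.3, 28.7 and 20.4 FPKM in LPA-treated animals. The groups overlapped widely, and the log2 fold change between MYO5B knockouts and controls was -0.05, with a 95% confidence interval from -0.97 to 0.87. Slc40a1, which encodes ferroportin, the only known cellular iron exporter (ENSMUSG00000025993, chromosome 1 from 45908068 to 45926523), was low throughout, at 0.161, 3.47 and 1.70 FPKM in controls. It was at 0.0233, 0.753, 1.77 and 1.07 FPKM in MYO5B knockouts and at 1.25, 1.87 and 0.841 FPKM in LPA-treated animals. The lowest values, 0.161 and 0.0233 FPKM, were 7 reads and 1 read and came from the 2 gene-poor libraries. With them the log2 fold change between MYO5B knockouts and controls was -0.78 (95% confidence interval -3.10 to 1.54), and without them it was -1.04 (adjusted p = 0.238 by limma). For the export step, the data of these mice thus set only wide limits.

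Tfrc, the gene of transferrin receptor 1 (ENSMUSG00000022797, chromosome 16 from 32608920 to 32632794), stood at 34.2, 28.9 and 23.8 FPKM in controls. It was at 77.5, 52.1, 50.6 and 32.5 FPKM in MYO5B knockouts and at 71.4, 19.6 and 88.8 FPKM in LPA-treated animals. Most induced mice were above the control mice, but MYO5B-knockout mouse 7 lay within the control range and LPA-treated mouse 4 below it. The log2 fold change was 0.82 between MYO5B knockouts and controls (95% confidence interval -0.27 to 1.92, adjusted p = 0.427 by limma) and 0.80 between LPA-treated animals and controls (-0.37 to 1.97, adjusted p = 0.479 by limma). Within the LPA-treated group the highest value was 4.52 times the lowest.

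Messages of iron metabolism carry iron-responsive elements, stem-loops to which iron regulatory proteins bind when iron is scarce. In a 5′ UTR the bound protein holds back translation, and in the 3′ UTR of Tfrc it protects the message from decay, so Tfrc mRNA is a classical readout of cellular iron. The elements found in these genes are shown because they are the sequences through which iron is known to act on Tfrc and ferroportin messages. Transcripts of all protein-coding genes (GENCODE M21, GRCm38) were searched for an unpaired C, 5 bases, the loop CAGTGN and 5 bases that pair with the 5 before the loop, with G-T pairs allowed. The pattern was found in 294 of 21877 genes (1.34%) and in 2 of the 10, Slc40a1 with 1 site in the 5′ UTR and Tfrc with 4 sites in the 3′ UTR. Capitals mark the unpaired C and the 6-base loop, and all sites lie in exons:
Slc40a1, chr1:45925466-45925492, minus strand: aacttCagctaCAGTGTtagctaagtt
Tfrc site 1, chr16:32631220-32631246, plus strand: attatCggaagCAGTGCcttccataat
Tfrc site 2, chr16:32631599-32631625, plus strand: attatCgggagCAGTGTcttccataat
Tfrc site 3, chr16:32631664-32631690, plus strand: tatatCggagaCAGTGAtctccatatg
Tfrc site 4, chr16:32631711-32631737, plus strand: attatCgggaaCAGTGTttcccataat
No match in Slc11a2 or Cybrd1 says only that this strict pattern was not found in their annotated transcripts. In the iron list the pattern was found in 2 of the 39 genes searched, those of the ferritin chains Fth1 and Ftl1, which are named for this reason. Fth1 stood at 560, 3855 and 2874 FPKM in controls, at 358, 1769, 1319 and 1792 FPKM in MYO5B knockouts and at 2451, 2109 and 1451 FPKM in LPA-treated animals. Its log2 fold change between MYO5B knockouts and controls was -0.73 (adjusted p = 0.641 by limma), and that of Ftl1 was -0.07 (adjusted p = 0.954 by limma). The lowest Fth1 values, 560 FPKM in controls and 358 FPKM in MYO5B knockouts, came from the 2 gene-poor libraries. In the other libraries every induced mouse lay below the controls for Fth1. With all 10 libraries, neither the receptor nor the ferritin messages passed in any comparison.

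Ratios within a library do not depend on the scaling between libraries. Vdr stood at 2.33, 1.31 and 1.39 times Heph in the control mice, at 0.480 to 0.629 times in MYO5B knockouts and at 0.500 to 0.675 times in LPA-treated animals. The gap between control and induced mice was therefore present within each library, including both gene-poor ones. The ratio of Cybrd1 to Slc11a2, the reductase to the transporter, was 0.00734 to 0.0150 in control mice, 0.130 to 0.547 in MYO5B knockouts and 0.624 to 1.94 in LPA-treated animals, without overlap between any of the 3 groups. The ratio of Tfrc to Slc11a2, blood-side to luminal uptake, was 1.15 to 2.12 in control mice, 3.67 to 15.5 in MYO5B knockouts and 2.76 to 10.9 in LPA-treated mice. The ratio of S100g to Heph was 0.245 to 0.601 in control mice and 0.0640 to 0.125 in MYO5B-knockout mice. In LPA-treated mice it was 0.127, 0.423 and 0.138, so that mouse 4 reached the control range. The ratio of Slc11a2 to Heph was 0.335 to 0.692 in control mice, 0.158 to 0.241 in MYO5B knockouts and 0.247 to 0.397 in LPA-treated mice. The pairs were picked by hand among the genes and not by a rule. Cybrd1 alone already separated the 3 groups, so its ratio to Slc11a2 is not a separate result. These ratios are descriptions and were not tested.

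**Figure D3:**
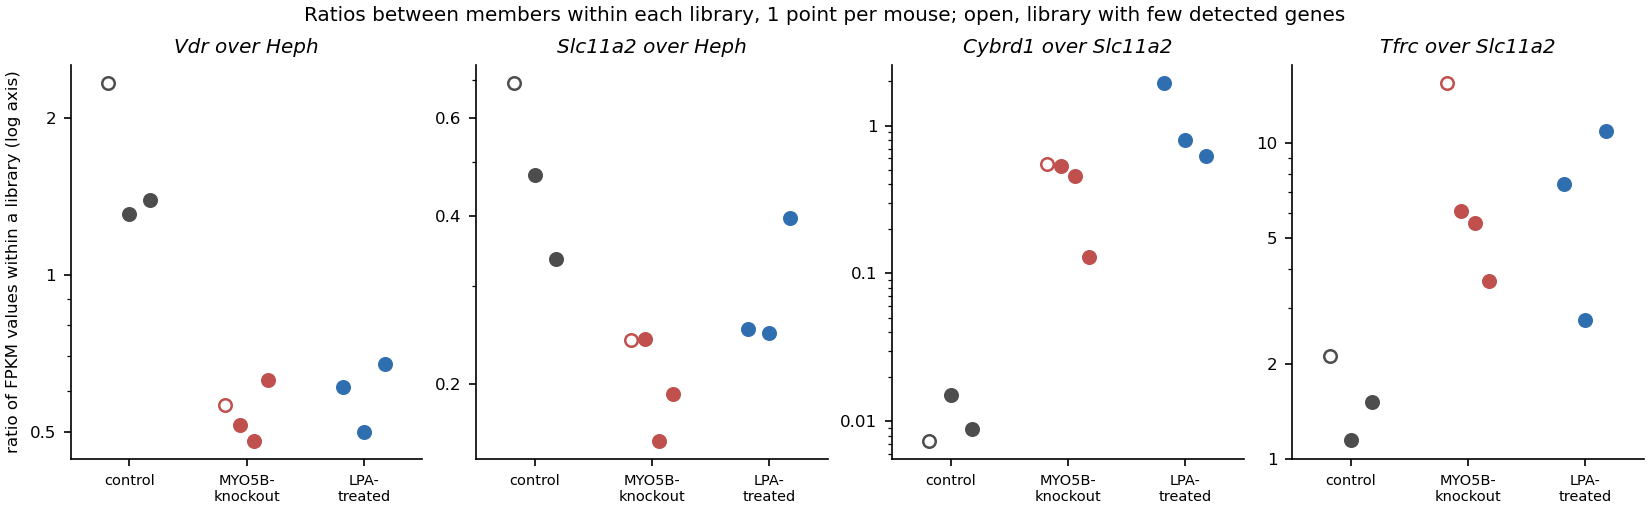
Ratio of FPKM values between pairs of the genes within each library (log axes), with 1 point per mouse and open points for the 2 gene-poor libraries. The ratio of Vdr to Heph was at or above 1.31 in the 3 control mice and at or below 0.675 in the 7 induced mice. The ratio of Cybrd1 to Slc11a2 separated all 3 groups, as did Cybrd1 alone.

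In control mice the order of the mean levels per gene length was Vdr (63.0 ± 7.79 FPKM, SD, n = 3), Heph (41.0 ± 15.6), Tfrc (29.0 ± 5.20), Slc11a2 (19.0 ± 5.30), S100g (17.4 ± 12.5), Atp2b1 (14.0 ± 8.90), Slc40a1 (1.78 ± 1.66) and Cybrd1 (0.212 ± 0.144), with Trpv6 and Cyp24a1 at 0. The range of Vdr lay above that of Heph and the range of Atp2b1 above that of Slc40a1, whereas the other neighbours in this order overlapped. In MYO5B-knockout mice Tfrc led (53.2 ± 18.5 FPKM, SD, n = 4), followed by Heph (39.9 ± 15.6), Atp2b1 (21.9 ± 7.26) and Vdr (21.6 ± 8.11), which was 4th. Slc11a2 (7.85 ± 1.91), S100g (3.75 ± 1.50) and Cybrd1 (3.15 ± 1.54) came next and Slc40a1 (0.904 ± 0.725) last of the genes above the filter. In this group the range of Vdr lay above that of Slc11a2, and all other neighbours overlapped. In LPA-treated mice Tfrc again led (59.9 ± 36.0 FPKM, SD, n = 3), and Cybrd1 (9.79 ± 7.68) was 5th, above Slc11a2 (8.27 ± 1.26) and S100g (6.61 ± 4.91), while Slc40a1 (1.32 ± 0.518) was again last. In this group only S100g and Slc40a1 did not overlap as neighbours.

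The other genes of iron handling came from a list of 40 genes, of which 31 passed the filter on low values. Between MYO5B knockouts and controls none of the 31 passed in either direction by limma, and their median log2 fold change was 0.49 against 0.29 over all genes. With both gene-poor libraries left out, 1 rose and none fell. Leaving them out changed the median to 0.254 against 0.211 over all genes. Of all 15729 genes, 177 rose and 139 fell, and 403 rose and 375 fell with these libraries left out. The groups were apart for 6 of the 31, all higher in MYO5B-knockout mice, and for 17.2% of all genes tested, in either direction. Among them were Lcn2 (4.12 and 0.627 FPKM on average, adjusted p = 0.117 by limma), which encodes the siderophore-binding lipocalin 2, Slc39a8, a zinc, manganese and iron transporter gene (8.22 and 1.22 FPKM, adjusted p = 0.157 by limma), and the metalloreductase gene Steap2 (0.928 and 0.338 FPKM, adjusted p = 0.244 by limma). Between LPA-treated animals and controls 1 of the 31 rose, Lcn2, and none fell, with a median of 0.82 against 0.42. Without the 2 libraries 2 rose and 1 fell, and the median was -0.07 against 0.135 over all genes. Of all 15729 genes, 243 rose and 122 fell, and 678 rose and 668 fell without the 2 libraries. Lcn2 stood at 0, 1.47 and 0.416 FPKM in controls, at 6.05, 4.60, 1.92 and 3.90 FPKM in MYO5B knockouts and at 8.95, 3.91 and 36.2 FPKM in LPA-treated animals. Its log2 fold change against control was 4.67 (standard error 1.02, adjusted p = 0.046 by limma), with the highest level in LPA-treated mouse 5, and 3.61 without the 2 gene-poor libraries (adjusted p = 0.0538 by limma). With single mice left out it passed in 2 of 10 fits, those without control mouse 4 or MYO5B-knockout mouse 3, and was 3.80 without LPA-treated mouse 5 (adjusted p = 0.187 by limma). The groups were apart for 7 of the 31 in the higher and 1 in the lower direction, and for 26.9% of all genes tested, in either direction. Among those that did not pass were Slc39a8 (3.13, adjusted p = 0.0752 by limma), Hmox1 and Slc46a1. Hmox1, which encodes the heme-degrading oxygenase, was at 0, 2.95 and 0.960 FPKM in controls, at 0.512 to 5.92 FPKM in MYO5B knockouts and at 6.62, 7.67 and 7.43 FPKM in LPA-treated animals. It was the only gene of the iron list whose LPA-treated and MYO5B-knockout values did not overlap, at a log2 fold change of 1.77 (adjusted p = 1 by limma) and 1.17 without the 2 libraries. Over all genes tested, 4.16% did not overlap in that comparison. Slc46a1, a folate and heme carrier gene, averaged 45.8 FPKM in LPA-treated and 113 FPKM in controls (adjusted p = 0.496 by limma).

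All 16 genes of a zinc and copper list passed the filter. Between MYO5B knockouts and controls 1 of them fell, Slc39a5, and none rose, with a median of 0.18 against 0.29, and without the 2 gene-poor libraries 2 fell and none rose. Of all 15729 genes, 177 rose and 139 fell, and 403 rose and 375 fell without these libraries. Between LPA-treated animals and controls none passed, with a median of 0.15 against 0.42. Once the 2 libraries were left out 1 rose and 2 fell, with a median of -0.069 against 0.135. Of all 15729 genes, 243 rose and 122 fell between these groups, and 678 rose and 668 fell without the 2 libraries. Slc39a5, which encodes a zinc importer of the basolateral membrane, was at 167, 147 and 164 FPKM in controls and at 67.1, 63.3, 69.0 and 73.9 FPKM in MYO5B knockouts, a log2 fold change of -1.22 (standard error 0.21, adjusted p = 0.0213 by limma). It passed in 6 of 10 fits with a mouse left out, and limma's adjusted p was 0.0645 to 0.113 without control mouse 4, control mouse 5, MYO5B-knockout mouse 5 or MYO5B-knockout mouse 6. In LPA-treated mice it was at 82.7, 91.3 and 76.2 FPKM, above every MYO5B-knockout mouse and below every control mouse. Its differences there, 0.29 from MYO5B-knockout and -0.93 from control mice, did not pass (adjusted p = 1 and 0.0616 by limma), although the latter did without the 2 libraries (-0.90, adjusted p = 0.0213 by limma). Slc30a2, a zinc exporter gene, averaged 15.9 FPKM in MYO5B-knockout, 13.0 FPKM in LPA-treated and 44.7 FPKM in controls (adjusted p = 0.0696 and 0.0618 against control by limma). Without the 2 libraries both differences passed, at -1.44 and -1.98 (adjusted p = 0.0125 and 0.00265 by limma). The copper transporter gene Slc31a2 averaged 4.59, 7.54 and 2.54 FPKM in the same order, and Slc30a7 averaged 5.58 FPKM in LPA-treated and 2.65 FPKM in controls (adjusted p = 0.353 by limma).

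**Figure D4:**
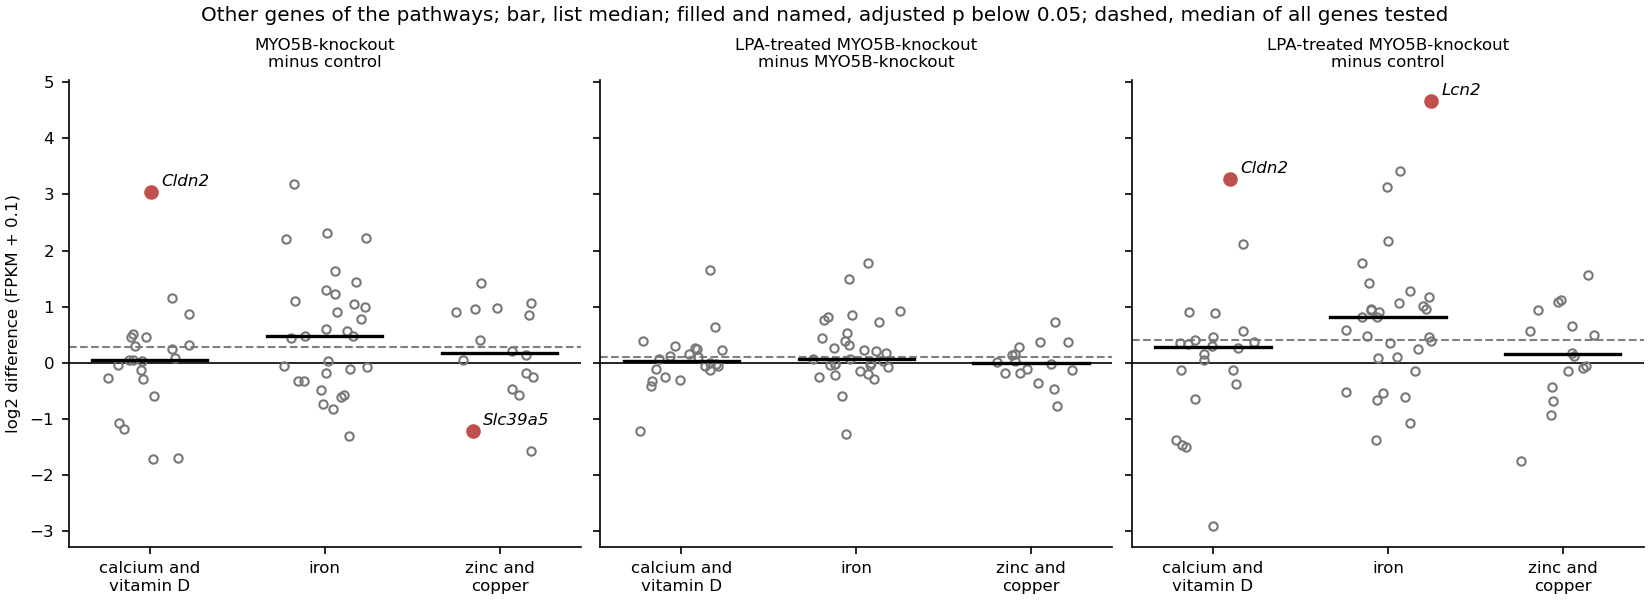
Log2 fold change of the 22 calcium and vitamin D genes, 31 iron genes and 16 zinc and copper genes above the filter, other than the 10 genes described first, in each comparison; a bar is the list median, the dashed line the median of all genes tested, and filled named points passed an adjusted p of 0.05. Cldn2 (3.05 and 3.28) passed in both comparisons with control, Slc39a5 (-1.22) in MYO5B-knockout mice and Lcn2 (4.67) in LPA-treated mice.

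For each of the 8 genes above the filter, the 3 genes most like it were taken by Pearson's r of log2(FPKM + 0.1) over the 10 libraries, among the 10575 genes averaging 1 FPKM or more. The libraries share their groups and depth, and the values are descriptions without a test. The pattern of Vdr was most like those of Itfg3, Aoc1 and Tmem86b (r = 0.984, 0.984 and 0.983). That of Cybrd1 was most like Acot1, Hmgcs1 and Ippk (0.985, 0.978 and 0.963). Slc11a2 was followed most closely by Fbxo25, Ces1e and Cndp1 (0.954, 0.950 and 0.949), and S100g by Gpr137, Relb and Bpgm (0.912, 0.909 and 0.907). For Tfrc they were Ivns1abp, Fbxo31 and Rfc5 (0.963, 0.942 and 0.940), and for Heph C530008M17Rik, Narf and Btnl6 (0.983, 0.981 and 0.974). Atp2b1 had Lig3, Slc19a3 and Cacul1 (0.981, 0.976 and 0.975), which dropped to 0.921, 0.888 and 0.942 without the 2 gene-poor libraries. Slc40a1 had Mfsd8, Tbk1 and Tdrd7 (0.976, 0.968 and 0.967), which dropped to 0.875, 0.858 and 0.869. For Vdr and Cybrd1 the 6 values without these libraries were 0.970 to 0.990.

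**Figure D5:**
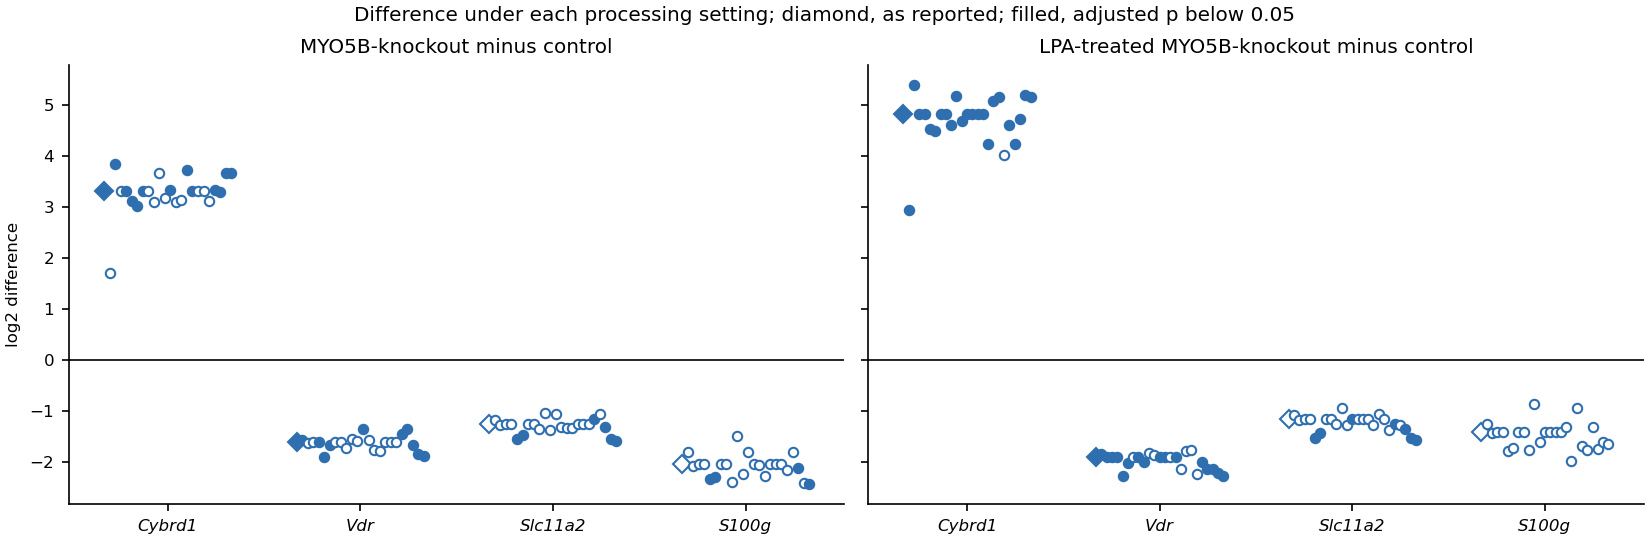
Log2 fold change of Cybrd1, Vdr, Slc11a2 and S100g against control under each processing setting, with a diamond for the reported value, circles for the alternatives in order of the settings tried, and filled symbols for an adjusted p below 0.05. Every setting kept the sign of these 4 genes, with Cybrd1 at 1.69 to 3.84 in MYO5B knockouts and 2.94 to 5.38 in LPA-treated mice, while the number of filled symbols differed between genes.

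Under the 23 alternative settings, Cybrd1 between MYO5B knockouts and controls passed in 12 and Vdr in 10, all in the same direction. On reads recovered from the FPKM, edgeR gave log2 fold changes of 3.65 for Cybrd1 and -1.84 for Vdr (edgeR's adjusted p = 0.0187 and 0.0151). Slc11a2 passed in 6 of the 23, at -1.60 to -1.05 over all of them, and S100g in 4, at -2.44 to -1.50. Between LPA-treated animals and controls, 24 settings could be fitted, of which Cybrd1 passed in 23 and Vdr in 16, Slc11a2 in 7 and S100g in 0.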

How the data were processed

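Per the labels and the study's methods, RNA from jejunal epithelial cells, isolated mechanically in EDTA and PBS, was sequenced from 10 mice. The authors deposited a table of FPKM values per gene and sample with gene lengths, and a table of read counts for a few genes they had selected, used here only to check the reads recovered from FPKM. Its columns of fold changes and p-values and the deposited enrichment tables hold the authors' own comparisons and were not used. The submitters' processing notes name STAR 2.5, TopHat, HTSeq 0.6.1 and DESeq2 and the build GRCm38 (mm10), without their order, and strand-specific counting is not given in the sources used here. Groups came from the sample labels.

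The deposited FPKM values were tested as log2(FPKM + 0.1) in limma 3.58.1 (R 4.3.3), with 1 model of 3 groups over all 10 mice, a variance trend, two-sided tests and Benjamini-Hochberg adjustment over the 15729 genes averaging 0.1 FPKM or more. An adjusted p below 0.05 was called passed. The FPKM values were whole multiples of 1 read (100% within 0.1 read), and 63 of 63 deposited counts compared with them were equal, so that edgeR 4.0.16 and DESeq2 1.42.0 were run on these reads as alternatives. The test was tried on simulated data. The 10 genes and all lists were chosen with earlier results of these data known. Named from the lists were all genes that passed and, per list and comparison, up to 3 highest and 3 lowest fold changes among genes whose groups did not overlap. Named for likeness were the 3 genes with the highest Pearson's r. Lists not mentioned in the results (macrophage, erythroid, stromal and endothelial, tuft, goblet, Paneth and enteroendocrine markers) held no gene that passed by limma with all 10 libraries. Without the 2 gene-poor libraries, 1 goblet and 1 distal small intestine marker rose in both comparisons with control and 3 Paneth markers fell between LPA-treated and control mice. P-values and confidence intervals rest on the spread between mice, whereas limits from reads cover counting error only. Alternatives were another pseudocount, filter, scaling or variance model, 2 groups only, each mouse left out, a replicate block and, chosen after seeing the data, 2 exclusions of libraries, a covariate and the count tests.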

Additional observations from a re-analysis of the deposited data

Results flagged for a closer look

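Groups of 4 mice were examined for a mouse far from the other 3 (a gap to its nearest neighbour beyond Dixon's critical share of the group's range), which applied to 9 combinations of gene and MYO5B-knockout group. For values with a continuous spread chance alone marks about 1 in 20 such groups, and 2 were marked here. For Trpv6, MYO5B-knockout mouse 5 had 1 read (0.0198 FPKM) and the other 3 mice had 0, a gap of 1 times the range that rests on a single read. Any nonzero value beside 3 zeros gives this gap, so the rate of 1 in 20 does not apply to it. For Slc11a2, MYO5B-knockout mouse 3 stood at 5.01 FPKM below 3 mice at 8.50 to 9.06 FPKM, a gap of 0.863 of the range. This library was also 1 of the 2 gene-poor ones, whose part in its value was not tested.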

How the results depend on the processing

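Of the 8 genes above the filter, Cybrd1, Vdr, Slc11a2, S100g, Atp2b1 and Tfrc kept their direction against control under every setting run. Heph and Slc40a1 did not. The number of the 8 that passed between MYO5B-knockout and control mice (2 as reported) was 1 with a pseudocount of 1 or of 0.01 or with robust variance estimates in place of a variance trend, and 0 without a filter on low values or with only the 2 groups compared. It was 4 after scaling by median ratios, quantile normalization, a covariate for the 2 gene-poor libraries or DESeq2, and 0 to 2 with a mouse left out. Between LPA-treated and control mice (2 as reported) it was 1 with robust estimates in place of the trend, 3 after either scaling, without the 2 gene-poor libraries, with the covariate, by edgeR or by DESeq2, and 1 to 3 with a mouse left out (3 without MYO5B-knockout mouse 3). Pathway genes that passed between MYO5B-knockout and control mice (2 as reported) were 6 after median ratios, 5 after quantile normalization, 1 with robust estimates in place of the trend or with only 2 groups, 0 to 4 with a mouse left out, 4 without the 2 libraries or by edgeR, 14 with the covariate and 12 by DESeq2. Between LPA-treated and control mice (2 as reported) they were 1 with a pseudocount of 0.01, without a filter, with robust estimates in place of the trend or with only 2 groups, 4 with a filter at 1 FPKM, 6 after either scaling, 1 to 8 with a mouse left out (8 without MYO5B-knockout mouse 3), 9 without the 2 libraries, 4 without the 2 libraries with Xist reads, 16 with the covariate and 14 by DESeq2. Over all 15729 genes, 316 passed between MYO5B-knockout and control mice as reported, 598 after median ratios and 804 after quantile normalization. The count was 778 without the 2 libraries, 443 by edgeR, 2449 with the covariate and 1854 by DESeq2. Between LPA-treated and control mice it was, in the same order, 365, 490, 626, 1346, 377, 1800 and 1503. The counts above are to be read against these. The cause of these differences was not tested.

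Whether mouse numbers pair the mice cannot be settled from so few shared numbers. Deviations from the group means correlated at 0.104 between the control and LPA-treated mice numbered 4 and at -0.355 between those numbered 5. Between control and LPA-treated mice with different numbers these correlations ran from -0.409 to 0.44. With the mouse number as a replicate block, 0 of the 8 genes and 0 pathway genes passed between LPA-treated and control mice (Cybrd1 at 4.01, adjusted p = 0.159; 3741 genes at an unadjusted p below 0.05 by limma). No paired analysis was possible against MYO5B-knockout mice because those groups share fewer than 2 numbers with them.

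Directions turned only in comparisons in which the gene passed under no setting. Without the 2 gene-poor libraries, LPA-treated minus MYO5B-knockout was -0.11 for Atp2b1, -0.098 for Slc11a2 and 0.18 for Tfrc, and with the covariate it was -0.19, -0.038 and 0.13, with Tfrc at 0.001 by edgeR. Without the 2 libraries with Xist reads it was -0.29 for Atp2b1 and -0.21 for Slc11a2, and MYO5B-knockout minus control was 0.23 for Heph and 0.051 for Slc40a1. For Slc40a1, LPA-treated minus control was -0.080 with a pseudocount of 1, -0.096 after median ratios, -0.35 after quantile normalization, -0.90 with the replicate block or without the 2 libraries, -0.91 with the covariate, -0.57 by edgeR and -0.58 by DESeq2. With a mouse left out these ranged from -0.11 to 0.32 (Atp2b1), -0.098 to 0.21 (Slc11a2), -0.44 to 0.65 (Tfrc), -0.41 to 0.23 (Heph), -1.87 to 0.051 (Slc40a1, MYO5B-knockout minus control) and -0.90 to 0.98 (Slc40a1, LPA-treated minus control).

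Depth limits Trpv6, Cyp24a1, S100g and Cybrd1 in control mice, which rest on few reads. Tamoxifen, given to induced mice and not to controls, cannot be told apart from loss of MYO5B.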
